A study of Mus musculus with 11 samples.

Results

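The 33 genes described here are known from the endothelial cells that line blood and lymph vessels, though some are also expressed in other cells. Their levels were followed in epididymal fat of mice that lack or regain the kinin B1 receptor. They were chosen by name, as receptors, junction proteins, surface proteins, secreted proteins, transcription factors and enzymes of the endothelium. Each was read from its brightest probe set with a single gene symbol, by mean log2 signal over all 11 arrays. All 33 passed the filter on dim probe sets, among 12709 genes tested. Fat rescue mice (aP2B1-B1-/-, 3 arrays) are knockouts of the kinin B1 receptor, encoded by Bdkrb1, in which it was restored selectively in fat under a label that names aP2. aP2 is another name of Fabp4, a gene of fat cells that other cells, macrophages among them, can also express. Its promoter commonly serves to express transgenes in fat. Whether the receptor was also restored in endothelial cells was not tested. Knockout mice (B1-/-, 4 arrays) lack the receptor, and wild-type mice (B1+/+, 4 arrays) carry it. All mice were male C57BL/6 on standard chow, aged 3 months.

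Endothelial cells form the inner layer of every vessel, and fat tissue is densely supplied with capillaries. Vascular endothelial growth factors act through the receptors Flt1, Kdr and Flt4, and angiopoietins through Tek, while VE-cadherin and other junction proteins seal neighbouring cells to each other. Kinins are peptides released in injured or inflamed tissue that widen vessels and make them leaky, and endothelial cells are among the cells that carry kinin receptors.

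The arrays were one-colour Affymetrix mouse arrays with 45101 probe sets, scaled by the authors to a trimmed mean of 200. The array medians differed by genotype: they were 45.6 to 46.6 in fat rescue, 46.5 to 48.8 in knockout and 41.3 to 45.1 in wild type, so every wild-type array was below all the others. Signal at the 3′ end of Actb over that at its 5′ end, a ratio which is higher where RNA is more degraded, was 1.47 to 1.56 in fat rescue, 1.53 to 1.69 in knockout and 1.65 to 1.83 in wild type. For Gapdh the same ratio was 0.9181 to 0.9496 in fat rescue, 0.8645 to 1.0006 in knockout and 0.9179 to 1.029 in wild type. The Gapdh ratio thus overlapped between all genotypes. The part of the array medians and of these ratios in the differences between genotypes was not tested. Precision is limited by how few arrays there are. Bdkrb1 itself read 73.4, 57.8 and 60.4 in fat rescue, 4.8, 29.4, 6.9 and 29.7 in knockout, and 5.5, 32.2, 3.7 and 8.9 in wild type. Its probe set was therefore above every other array in fat rescue but did not set knockout apart from wild type. Fat tissue markers were bright in all arrays, with Adipoq, the gene of the hormone adiponectin, between 15589 and 23627. Of 10 genes of the neighbouring epididymis on the array, the brightest had a mean signal of 26.5. Along the first principal component (27.3% of the variance), fat rescue array 1 (-34.1) and array 1 of the wild type (-45.4) lay far from the others. The labels call the arrays biological replicates and do not say more about the animals, so p-values measure the spread between these samples.

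No endothelial gene passed the threshold in any comparison, and the small differences that were seen mostly had 1 sign across the group. In fat rescue against knockout, 29 of the 33 genes had the higher fitted level in fat rescue, with a median log2 difference of 0.19. In knockout against wild type 25 had the lower level in knockout, with a median of -0.07. In fat rescue against wild type 23 had the higher level in fat rescue, with a median of 0.09. Without the 2 arrays that stood apart, 30 genes were higher in fat rescue than in knockout, 8 were higher in knockout than in wild type, as with all arrays, and 20 were higher in fat rescue than in wild type. These directions lean on single arrays, fat rescue array 3 above all, as described below. In whole tissue, fewer endothelial cells and less RNA per cell cannot be told apart.

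**Figure D1:**
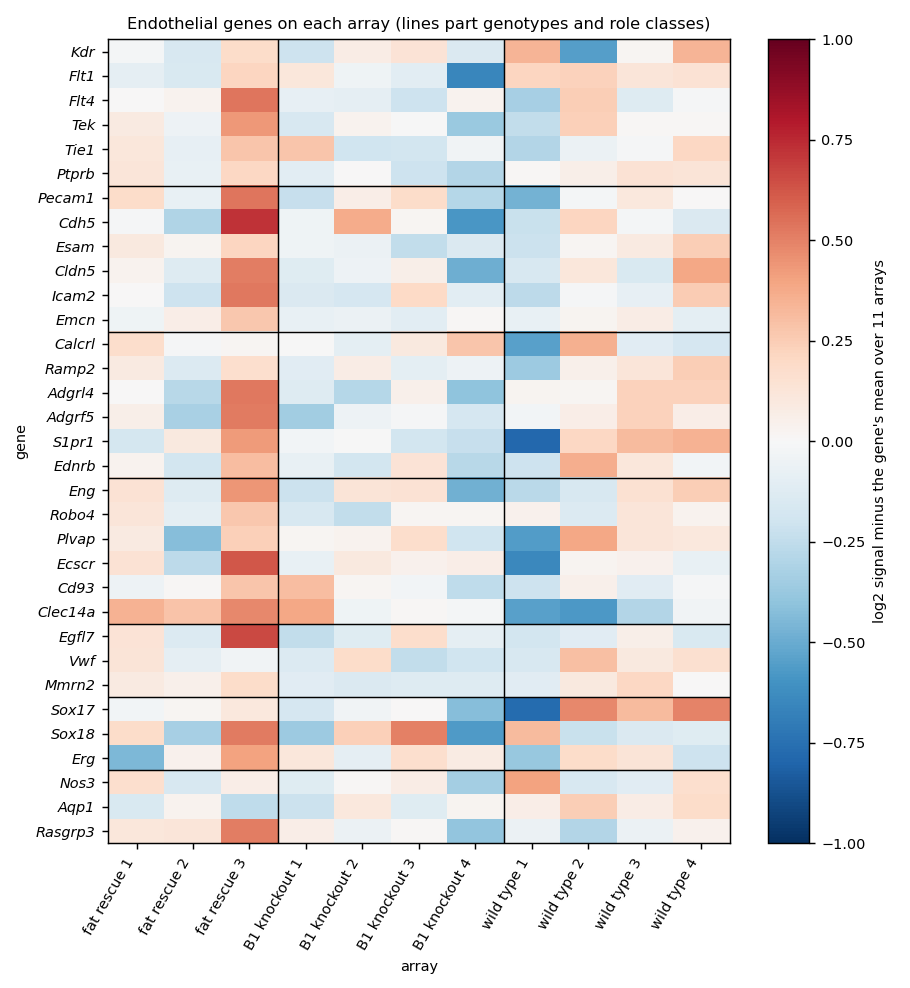
Log2 signal of the 33 endothelial genes (rows, grouped by role) on the 11 arrays (columns, fat rescue, knockout, wild type) as the difference from the gene's own mean, from blue (lower) to red (higher). The column of fat rescue array 3 is mostly red, with 31 genes above their mean, and those of knockout array 4 and wild-type array 1 are mostly blue, with 7 and 8 genes above it.

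Fat rescue array 3 stood at the top of this set, as the heat map of the genes shows. It gave the highest signal of all 11 arrays for 20 of the 33 genes, and its mean log2 deviation over the 33 genes was 0.34. The other fat rescue arrays were at 0.05 (array 1) and -0.09 (array 2). The 4 knockout arrays were at -0.07, -0.02, 0.01 and -0.21, and the 4 wild-type arrays at -0.20, 0.05, 0.05 and 0.09. The genotypes thus overlapped in the mean of the set, and the range within fat rescue was wider than any gap between genotype means. Knockout array 4 held the lowest signal for 12 genes and wild-type array 1 for 10.

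**Figure D2:**
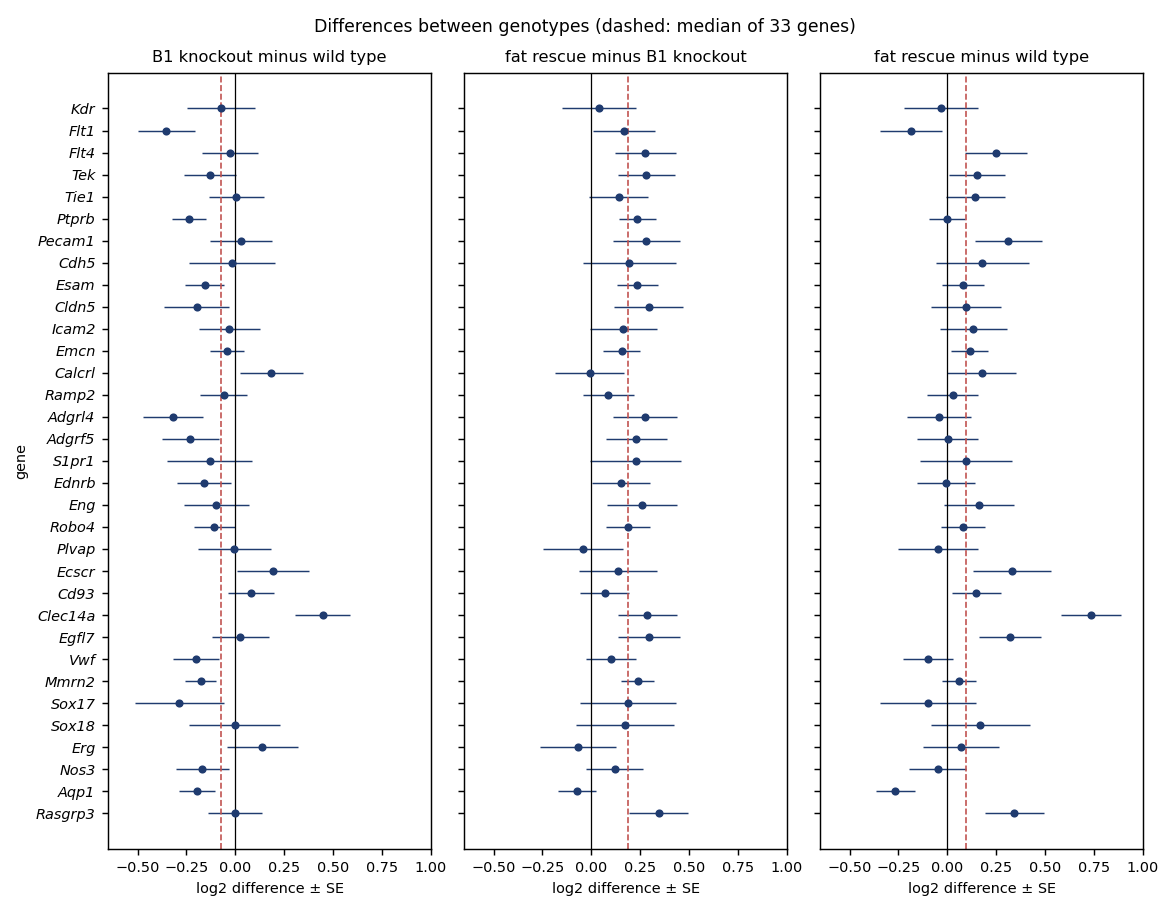
Fitted log2 differences (points, with SE bars) of the 33 genes in the 3 comparisons; the dashed line is the median of the 33 genes and the solid line marks 0. Most points lie right of 0 in fat rescue minus knockout (29 of 33) and left of it in knockout minus wild type (25 of 33), and Clec14a lies farthest right in fat rescue minus wild type, at 0.73.

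In knockout against wild type, 0 of 33 passed an adjusted p under 0.05 in limma, against 0.0393% of all genes tested, and the smallest adjusted p was 0.599 (Clec14a). At an unadjusted p under 0.05, 3 were lower (Flt1, Ptprb and Mmrn2; 3.36% of all genes were lower by that measure) and 1 was higher (Clec14a; 3.94%). The share with a fitted difference below 0 was 46.3% over all genes, whose median was 0.02. The arrays of knockout and wild type did not overlap for 2 genes that were lower in knockout, Flt1 and Ptprb (1.86% of all genes), and for 0 that were higher (1.98%). Without knockout array 4, or without wild-type array 4, 13 of the 33 genes were higher in knockout instead of 8.

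In fat rescue against knockout, 0 of 33 passed, as did 0% of all genes tested, with a smallest adjusted p of 0.998. At an unadjusted p under 0.05, 4 were higher in fat rescue (Ptprb, Esam, Mmrn2 and Rasgrp3; 2.09% of all genes) and 0 were lower (1.72%). A fitted difference above 0 was found for 52.6% of all genes, with a median of 0.01. The arrays did not overlap for Esam, Mmrn2 and Rasgrp3, 3 genes higher in fat rescue (2.84% of all genes), and for 0 lower (2.09%). Without fat rescue array 3 the median difference of the 33 genes was 0.07 and 24 were higher.

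In fat rescue against wild type, 0 of 33 passed, against 0.0157% of all genes, and the smallest adjusted p was 0.204 (Clec14a). At an unadjusted p under 0.05, Clec14a and Rasgrp3 were higher (2 genes; 4.6% of all genes) and Aqp1 was lower (1 gene; 3.49%). A difference above 0 was found for 55.7% of all genes, with a median of 0.03. The arrays did not overlap for the same 2 higher genes (5.74% of all genes) and the same 1 lower gene (3.5%). The median of the 33 turned to -0.04 without fat rescue array 3, when 14 genes were higher, and to -0.01 with each array centred on its median. In the moderated F test over the 3 genotypes, 0 of 33 passed (0.0393% of all genes), and Clec14a, Ptprb, Mmrn2 and Aqp1, 4 genes, had an unadjusted p under 0.05 (6.41%). The comparisons share their arrays pairwise, so their counts are not separate evidence.

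Among the receptor tyrosine kinases and their phosphatase, 5 of 6 genes were lower in knockout than in wild type (median -0.10), and all 6 were higher in fat rescue than in knockout (median 0.20). Flt1 is VEGF receptor 1, which binds the growth factor tightly and signals weakly. Its signals were 365, 349 and 451 in fat rescue, 419, 376, 359 and 246 in knockout, and 449, 456, 422 and 429 in wild type. All 4 knockout arrays were below all 4 wild-type arrays, knockout array 4 by the most, and fat rescue overlapped both. The difference of knockout from wild type was -0.35 ± 0.15 (adjusted p = 0.683), and -0.19 without knockout array 4. Of its dimmer probe sets, 2 were also lower in knockout, at -0.28 and -0.41, and the dimmest was at 0.07.

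Ptprb is the endothelial tyrosine phosphatase VE-PTP, which restrains Tek signalling and stabilises VE-cadherin junctions. It read 1678, 1469 and 1781 in fat rescue, 1436, 1551, 1338 and 1258 in knockout, and 1555, 1609, 1709 and 1691 in wild type. Every knockout array was below every wild-type array, whereas fat rescue overlapped both genotypes. Knockout differed from wild type by -0.24 ± 0.09 (adjusted p = 0.650) and fat rescue from knockout by 0.23 ± 0.09 (adjusted p = 0.998). Both dimmer probe sets had the same directions, with -0.15 and -0.11 in knockout against wild type and 0.23 and 0.40 in fat rescue against knockout. Fat rescue and wild type had nearly equal levels, with a difference of -0.00 ± 0.09.

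For the other receptors of this class the arrays of all genotypes overlapped. Kdr, the main signalling receptor of VEGF-A, differed by -0.07 ± 0.17 between knockout and wild type and by 0.04 ± 0.19 between fat rescue and knockout. Tek, the angiopoietin receptor, and Tie1, its relative without a firmly established ligand, were at 0.28 and 0.14 in fat rescue minus knockout. Flt4, the receptor of VEGF-C in lymphatic endothelium, was at 0.28 there. Its 2 probe sets went opposite ways over the arrays within genotypes (r = -0.84), and the dimmer one gave 0.57 in knockout minus wild type where the brighter one gave -0.03, so its level is uncertain.

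**Figure D3:**
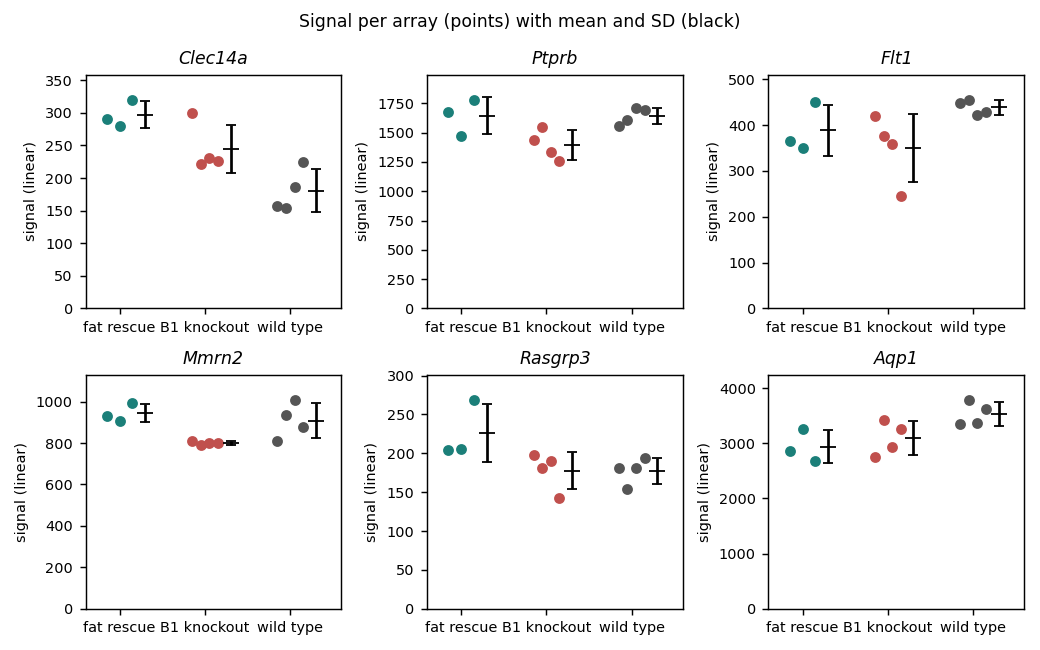
Signal on every array (coloured points; linear axis from 0) of 6 endothelial genes in fat rescue, knockout and wild type, with the mean and SD in black. Flt1 and Ptprb are lower on all knockout arrays than on all wild-type arrays, Mmrn2 and Rasgrp3 higher on all fat rescue arrays than on all knockout arrays, Clec14a and Rasgrp3 higher and Aqp1 lower on all fat rescue arrays than on all wild-type arrays.

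Junction and adhesion genes were the only one of the 7 role classes in which all members had the higher fitted level in fat rescue in both of its comparisons, 6 of 6 each, with medians of 0.21 against knockout and 0.12 against wild type. Esam, an immunoglobulin-type adhesion protein of tight junctions, gave 1147, 1096 and 1248 in fat rescue, 1042, 1033, 907 and 971 in knockout, and 925, 1088, 1142 and 1276 in wild type. Fat rescue lay above all knockout arrays while wild type spread across both. The difference of fat rescue from knockout was 0.24 ± 0.11 (adjusted p = 0.998). Pecam1 (CD31), the most used marker of endothelium, read 772, 646 and 986 in fat rescue, 579.9, 713, 771 and 558 in knockout, and 490.2, 669, 730.1 and 683 in wild type. Fat rescue array 3 was the highest and wild-type array 1 the lowest array, with overlap between all genotypes. Fat rescue differed from wild type by 0.31 ± 0.17 (adjusted p = 0.662), and by 0.15 without its array 3.

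For the rest of the class the arrays of all genotypes overlapped. Cdh5, which encodes VE-cadherin, and Cldn5, the main claudin of endothelial tight junctions, were at 0.19 ± 0.24 and 0.29 ± 0.18 in fat rescue minus knockout. Icam2, an adhesion molecule for leukocytes, and Emcn, a sialomucin of capillaries and veins, were at 0.16 ± 0.17 and 0.16 ± 0.09. In knockout minus wild type the 6 genes of the class lay between -0.20 and 0.03.

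The class of G protein-coupled receptors and their partner, 6 genes with the partner included, gave medians of -0.15 in knockout minus wild type and 0.19 in fat rescue minus knockout. Adgrl4, an adhesion receptor of growing vessels, read 699, 573 and 1001 in fat rescue, 638, 571, 721 and 527 in knockout, and 711, 704, 818 and 816 in wild type. Fat rescue array 3 was the highest of all arrays, and knockout array 3 reached into the wild-type range. Its difference of knockout from wild type was -0.32 ± 0.15 (adjusted p = 0.693), and its dimmer probe set gave -0.26. Adgrf5, an adhesion receptor of endothelium and lung epithelium, read 2872, 2195 and 3941 in fat rescue, 2161, 2653, 2728 and 2444 in knockout, and 2699, 2885, 3221 and 2885 in wild type. Here too fat rescue array 3 was the highest, and knockout array 1 was the lowest. Knockout minus wild type was -0.23 ± 0.15 (adjusted p = 0.750), and -0.06 in the dimmer probe set.

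Calcrl and Ramp2, which together form a receptor of adrenomedullin, a peptide that keeps the endothelial barrier tight, had overlapping arrays in all genotypes. Calcrl was at 0.18 ± 0.16 and Ramp2 at -0.06 ± 0.12 in knockout minus wild type, and the dimmer probe set of Calcrl that passed the filter was at -0.16. S1pr1, the receptor of sphingosine 1-phosphate in endothelium, was at -0.13 ± 0.22, a value that includes its low reading of 359.6 on wild-type array 1, where the other wild-type arrays were between 713.9 and 785.9. Ednrb, the endothelin B receptor, was at -0.16 ± 0.14, and its dimmer probe sets were at -0.02 and -0.06.

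Clec14a, a C-type lectin-like surface protein of endothelium known in human and mouse for its part in vessel sprouting, had the largest differences of the 33 genes from wild type in both lines. Its signals were 291, 279.9 and 320.4 in fat rescue, 300.1, 222, 231 and 227 in knockout, and 157, 154, 187 and 224 in wild type. The 3 fat rescue arrays were above all wild-type arrays, and the knockout arrays lay between them, with knockout array 1 inside the fat rescue range and knockout array 2 just under wild-type array 4. Means were 297 ± 20.9 in fat rescue, 245 ± 36.8 in knockout and 181 ± 32.7 in wild type (SD, n = 3, 4 and 4). Fat rescue differed from wild type by 0.73 ± 0.15 (adjusted p = 0.204), knockout from wild type by 0.45 ± 0.14 (adjusted p = 0.599), and fat rescue from knockout by 0.29 ± 0.15 (adjusted p = 0.998). In fat rescue minus wild type the value stayed between 0.60 and 0.84 under 21 other settings, with adjusted p of 0.0964 or more. The dimmer of its 2 probe sets gave 0.48, 0.48 and -0.01 in these comparisons, though the probe sets did not vary together within genotypes (r = -0.06). Clec14a lies on chromosome 12, as does Bdkrb1, and it is the single gene of the 33 on that chromosome. The distance between Clec14a and Bdkrb1 was not examined, and the part of this location in the differences was not tested.

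The other surface proteins differed by less. Robo4, a roundabout receptor of endothelium that steadies the vessel wall, read 497, 429 and 552 in fat rescue, 409.7, 387, 465 and 465 in knockout, and 472, 417, 498 and 470.3 in wild type, with overlap between all genotypes and a difference of fat rescue from knockout of 0.19 ± 0.11 (adjusted p = 0.998). For Robo4 that difference was 0.10 without fat rescue array 3 and 0.28 without fat rescue array 2. Eng, the TGF-beta co-receptor endoglin, was at 0.26 ± 0.18 and Plvap, the protein of fenestral diaphragms, at -0.04 ± 0.20. Cd93, a relative of Clec14a, was at 0.15 ± 0.13 in fat rescue minus wild type and Ecscr, a small endothelial surface protein, at 0.33 ± 0.20.

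Mmrn2 encodes multimerin 2, a matrix protein of vessels that binds both Clec14a and Cd93 in human. It read 932, 906 and 992 in fat rescue, 809.7, 791, 799.7 and 799.6 in knockout, and 808, 936, 1008 and 879 in wild type. The knockout arrays kept to a range of 790.8 to 809.7, below all fat rescue arrays and all but the lowest wild-type array, at 808.1. Fat rescue differed from knockout by 0.24 ± 0.09 (adjusted p = 0.998) and knockout from wild type by -0.18 ± 0.08 (adjusted p = 0.683). Of its 3 dimmer probe sets, 2 were also higher in fat rescue, at 0.21 and 0.06, and the dimmest was lower, at -0.30. With the mean of its probe sets the difference was 0.05.

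The other secreted proteins were Egfl7, a matrix-bound protein of sprouting vessels, and Vwf, von Willebrand factor. Egfl7 read 735, 608 and 1056 in fat rescue, 563, 613, 753 and 626 in knockout, and 588, 618, 696 and 599 in wild type. Its fat rescue values were spread from near the lowest wild-type array to the highest array of all, and fat rescue minus wild type was 0.32 ± 0.16 (adjusted p = 0.634). All 3 dimmer probe sets were higher as well, at 0.28, 0.20 and 0.57, though within genotypes they varied little with the brightest one (r = 0.41, 0.06 and 0.09). Without fat rescue array 3 the difference of the brightest probe set was 0.10. Vwf was at -0.20 ± 0.12 in knockout minus wild type.

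Among the 3 transcription factors, Sox17 and Sox18 had the largest standard errors of the 33 genes in knockout minus wild type. Sox17, a SoxF factor of arterial endothelium, read 772, 795 and 846 in fat rescue, 702, 769, 789 and 585 in knockout, and 461, 1096, 981 and 1109.6 in wild type. Wild-type array 1 was the lowest of all 11 arrays and the other wild-type arrays were the highest 3. The difference of knockout from wild type was -0.29 ± 0.23 (adjusted p = 0.796), and -0.59 without wild-type array 1, with an adjusted p of 0.0973. Leaving out the second wild-type array gave -0.17 for Sox17, and leaving out the fourth gave -0.16. Its dimmer probe set gave -0.38. Sox18, a SoxF factor of lymphatic and vascular endothelium, was at -0.00 ± 0.23. It read 1030 on wild-type array 1 and between 708.8 and 760.9 on the other wild-type arrays, the opposite way to Sox17.

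Erg, an ETS factor that maintains endothelial identity, read 137, 193 and 247 in fat rescue, 202, 176, 209.8 and 197 in knockout, and 144, 212, 204 and 161 in wild type, with overlap throughout. Knockout minus wild type was 0.14 ± 0.18 (adjusted p = 0.879), which turned to -0.01 with each array centred on its median. For Erg the difference was 0.04 when the first wild-type array was left out, 0.09 when the fourth was, and 0.22 when the second was.

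The enzyme, channel and signalling genes went different ways. Aqp1, the water channel of capillary endothelium, read 2869, 3264 and 2684 in fat rescue, 2753, 3428, 2939 and 3251 in knockout, and 3351, 3786, 3359.7 and 3622 in wild type. All fat rescue arrays were below all wild-type arrays, and only knockout array 2 reached the wild-type range. Fat rescue differed from wild type by -0.27 ± 0.10 (adjusted p = 0.551) and knockout from wild type by -0.19 ± 0.09 (adjusted p = 0.690). Rasgrp3, an exchange factor that activates Ras and Rap proteins downstream of VEGF receptors, read 204, 205 and 269 in fat rescue, 198, 181, 189.6 and 143 in knockout, and 181, 154, 181 and 194 in wild type. Fat rescue was above every array of both other genotypes, with array 3 far above its arrays 1 and 2, and knockout and wild type overlapped. Its differences were 0.34 ± 0.15 (adjusted p = 0.998) from knockout, which was 0.21 without fat rescue array 3, and 0.34 ± 0.15 (adjusted p = 0.596) from wild type. The dimmer probe set gave -0.07 and 0.15. Nos3, the endothelial nitric oxide synthase, was at -0.17 ± 0.13 in knockout minus wild type.

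Probe sets of 1 gene did not always go the same way. Of the 33 genes, 17 had a single probe set and 15 had several above the filter. All passing probe sets of a gene had 1 sign in 9 of 15 genes in knockout minus wild type, 7 of 15 in fat rescue minus knockout and 11 of 15 in fat rescue minus wild type.

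Start regions from RefSeq (GRCm38.p6, 300 bases around the gene start) were at hand for 18 of the 33 genes, in 24 windows. They were searched on both strands for 10 short motifs, from which AGGAAG and CGGAAG, 2 forms of the core that ETS factors such as Erg bind, were picked for marking after the counts had been seen. AGGAAG was present in 13 of 24 windows (54.2%), against 35.4% of 32851 windows of all genes, and in at least 1 window of 12 of the 18 genes, against 38.4% of 27025 genes. CGGAAG was present in 1 of 24 windows (4.17%), against 16.9%. Of longer forms that overlap these, CAGGAAG was present in 7 of the 24 windows (13.3% of all windows), ACAGGAA in 7 (8.67%), ACAGGAAG in 4 (3.58%), GGAAGTG in 5 (11.004%) and CCGGAAG in 0 (8.86%). The bare core GGAA was present in 23 (96.0%), the Sox-type ACAAAG in 3 (18.7%) and the TATA box TATAAA in 3 (13.6%). The windows of Clec14a and Aqp1, whose arrays did not overlap between fat rescue and wild type in opposite directions, and of Tie1, the gene that varied most closely with Clec14a, are given 5′ to 3′ on the gene's strand, with matches on either strand in capitals.
Clec14a, chr12:58269209-58269508, minus strand: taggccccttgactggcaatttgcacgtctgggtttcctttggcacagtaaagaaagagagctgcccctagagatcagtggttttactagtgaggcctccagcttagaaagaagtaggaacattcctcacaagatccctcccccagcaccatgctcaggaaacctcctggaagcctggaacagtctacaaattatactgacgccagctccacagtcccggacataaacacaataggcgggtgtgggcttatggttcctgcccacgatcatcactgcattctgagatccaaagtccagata
Tie1, chr4:118489800-118490099, minus strand: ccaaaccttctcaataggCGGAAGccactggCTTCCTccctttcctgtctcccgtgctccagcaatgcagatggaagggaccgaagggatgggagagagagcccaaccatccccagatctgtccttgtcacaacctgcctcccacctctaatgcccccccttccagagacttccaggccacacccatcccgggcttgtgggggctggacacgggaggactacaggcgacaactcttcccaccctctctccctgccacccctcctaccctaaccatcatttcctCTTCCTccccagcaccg
Aqp1, chr6:55336049-55336348, plus strand: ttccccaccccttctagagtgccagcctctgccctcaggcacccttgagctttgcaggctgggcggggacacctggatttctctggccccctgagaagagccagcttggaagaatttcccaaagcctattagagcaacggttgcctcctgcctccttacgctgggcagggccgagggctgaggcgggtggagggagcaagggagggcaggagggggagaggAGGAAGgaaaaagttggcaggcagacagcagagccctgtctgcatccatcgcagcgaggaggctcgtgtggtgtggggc
The Clec14a window held neither motif, the Tie1 window held AGGAAG at 2 places and CGGAAG at 1, and the Aqp1 window held AGGAAG at 1. A match describes the letters of the window and does not show binding.

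Within genotypes the genes varied together from array to array. After removal of genotype means, Pearson's r over the 11 arrays had a median of 0.43 over the 528 pairs of endothelial genes (quartiles 0.17 and 0.62), and 441 pairs (83.5%) were above 0. Pairs of an endothelial gene with any of the other 12676 genes tested had a median of 0.000942, and 50.1% were above 0. An r above 0.5 was found for 40.9% of the pairs within the set and for 10.03% of the pairs with other genes. These values describe arrays that all pairs share, and fat rescue array 3 carried a part of them, since the median was 0.29 without it and between 0.29 and 0.47 when any array was left out.

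**Figure D4:**
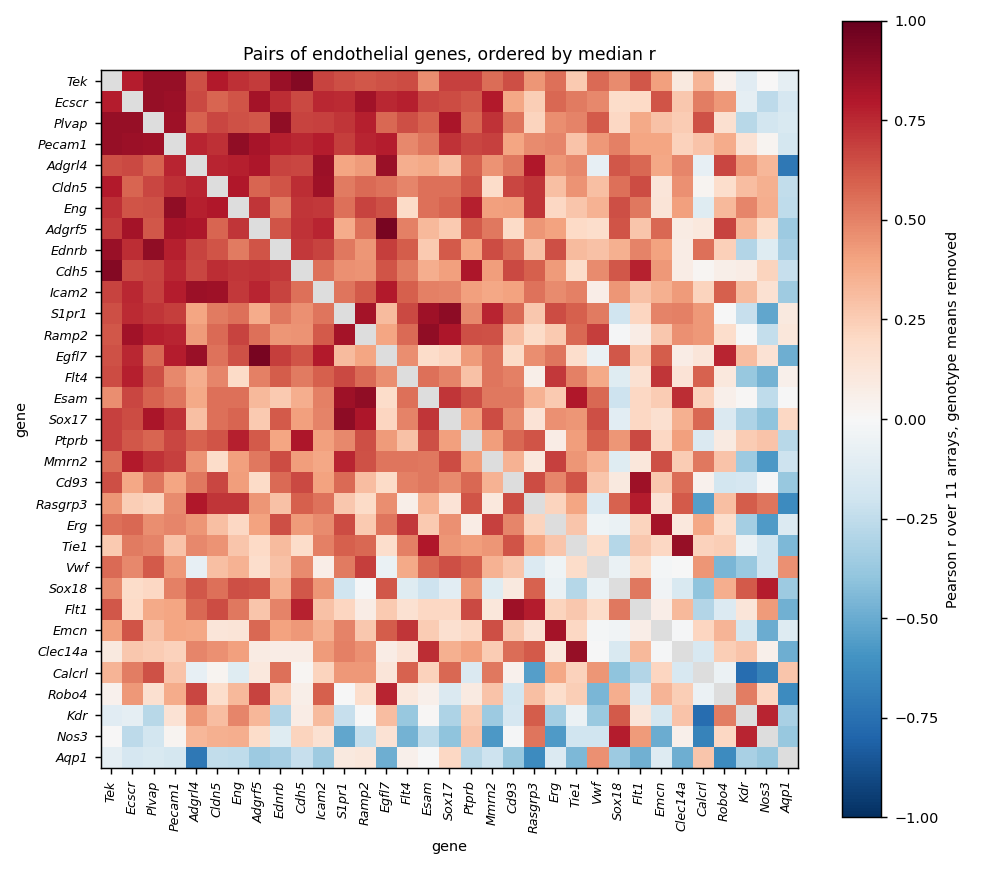
Pearson r of every pair of the 33 genes over 11 arrays after removal of genotype means, from blue (-1) to red (1), with genes ordered by their median r with the others. Most of the matrix is red (441 of 528 pairs above 0), and the last rows, Kdr, Nos3 and Aqp1, are pale or blue.

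The genes closest to the rest of the set were Tek and Ecscr, each with a median r of 0.63 with the other 32, followed by Plvap and Pecam1, each at 0.60. The angiopoietin receptor Tek and the junction protein Cdh5 had an r of 0.92 (Spearman's rho 0.95). It was 0.94 without the 2 arrays farthest from the median of Tek. In the pairs that follow here, the 2 arrays left out were chosen in the same way by the gene named first, so extreme arrays of the other gene stayed in. Adgrf5 and Egfl7 had 0.95 (rho 0.89; 0.84 without 2 arrays), S1pr1 and Sox17 0.89 (rho 0.82; 0.67) and Pecam1 and Eng 0.89 (rho 0.87; 0.86). The value for Egfl7 rests on its brightest probe set, with which its dimmer ones had r of 0.41, 0.06 and 0.09. Clec14a varied most closely with Tie1, at 0.87 (rho 0.84; 0.69), and had a median of 0.25 with the other genes.

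Of the 33 genes, 31 had a median r above 0 with the others. Aqp1 was apart, with a median r of -0.25 and an r above 0 with 6 of the other 32 genes. Its lowest r was -0.71 with Adgrl4 (rho -0.66), and -0.65 without the 2 arrays farthest from the median of Adgrl4. Nos3 and Kdr, the synthase and the receptor upstream of it, had medians of -0.00 and 0.01 with the set but 0.76 with each other. Kdr and Calcrl had the lowest r of any pair, -0.76 (rho -0.44). It was -0.23 without the 2 arrays farthest from the median of Kdr, and so rested on those.

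Outside the set, the 6 genes with the highest mean r with the 33 genes were Sh3bp5, Svep1, Dmtf1, Zfp472, Fbln5 and Adcy4, between 0.57 and 0.56. They are the top of a ranking of 12676 genes, and none differed between genotypes at an adjusted p under 0.05 in limma.

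A list of ligands and cofactors, which also held the receptor Aplnr and its ligand, had 23 genes that were all measured. It had 0 genes past the threshold in any comparison. Its medians were 0.02 in knockout minus wild type, 0.07 in fat rescue minus knockout and 0.16 in fat rescue minus wild type. All fat rescue arrays were above all wild-type arrays for 4 of the 23 genes (5.74% of all genes) and below them for 0 (3.5%). Aplnr, the apelin receptor of sprouting endothelium, read 1414, 1668 and 1703 in fat rescue, 2243, 1118, 1244 and 1520.2 in knockout, and 892, 1243, 1109.5 and 938 in wild type. Every fat rescue array was above every wild-type array, and knockout array 1 was above all others. Fat rescue differed from wild type by 0.62 ± 0.20 (adjusted p = 0.483). Its ligand Apln was at 0.35 ± 0.15 in knockout minus wild type. Bmp4, a bone morphogenetic protein, read 424, 292 and 372 in fat rescue, 206, 266, 264 and 335 in knockout, and 268, 273, 281 and 254 in wild type, and fat rescue minus knockout was 0.44 ± 0.16 (adjusted p = 0.998), with knockout array 4 inside the fat rescue range.

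Of 21 genes of Notch and BMP signalling in endothelium 18 were measured, and 0 passed in any comparison, with medians of 0.00, 0.14 and 0.19 in the same order of comparisons. Hey1, a transcriptional repressor induced by Notch, read 131, 99.9 and 150.3 in fat rescue, 134, 125, 116 and 121 in knockout, and 65.4, 83.9, 111 and 81.1 in wild type. All knockout arrays were above all wild-type arrays, by a difference of 0.56 ± 0.18 (adjusted p = 0.614), and fat rescue minus wild type was 0.58 ± 0.19. Smad6, an inhibitor of BMP signalling, was lower on all knockout arrays, at 275.6 to 409.0, than on all wild-type arrays, at 430.8 to 469.2. The difference was -0.46 ± 0.14 (adjusted p = 0.578). In fat rescue Smad6 read 396.2 to 621.6, which overlapped both other genotypes, and fat rescue minus knockout was 0.58 ± 0.15 (adjusted p = 0.998). Gja4, a connexin of arterial endothelium, was at 0.41 ± 0.14 in fat rescue minus wild type. Of the 18 genes, 2 had all knockout arrays above all wild-type arrays (1.98% of all genes) and 1 had them all below (1.86%).

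A further 45 measured genes of endothelium, of 49 listed, were counted in the same way. In fat rescue minus knockout 40 of 45 were higher (median 0.19), in fat rescue minus wild type 34 (0.12), and in knockout minus wild type 16 (-0.03), and 0 passed in any. At an unadjusted p under 0.05, 8 were higher in fat rescue than in knockout (2.09% of all genes) and 8 higher than in wild type (4.6%), with 0 lower in either. By the same measure 1 was higher (3.94%) and 2 were lower (3.36%) in knockout than in wild type. The mean deviation of this list was 0.10, -0.07 and 0.34 on fat rescue arrays 1, 2 and 3, and -0.14 to -0.01 in knockout. Counts for the list without fat rescue array 3 were not taken. Tm4sf1, a tetraspanin-like surface protein of endothelium, read 2071, 1636 and 2705 in fat rescue, 1471, 1538, 1719 and 1428 in knockout, and 1269, 1343, 1647 and 1663 in wild type, and fat rescue minus wild type was 0.51 ± 0.15 (adjusted p = 0.435), 0.32 without fat rescue array 3. Arap3 and Palmd were at 0.42 ± 0.13 and 0.25 ± 0.10 in fat rescue minus knockout, where all their fat rescue arrays were above all knockout arrays. That held for 6 of the 45 genes (2.84% of all genes), and 0 were below (2.09%). All fat rescue arrays were above all wild-type arrays for 4 (5.74%) and below them for 0 (3.5%). Knockout arrays were all above wild type for 0 (1.98%) and all below for 1 (1.86%).

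**Figure D5:**
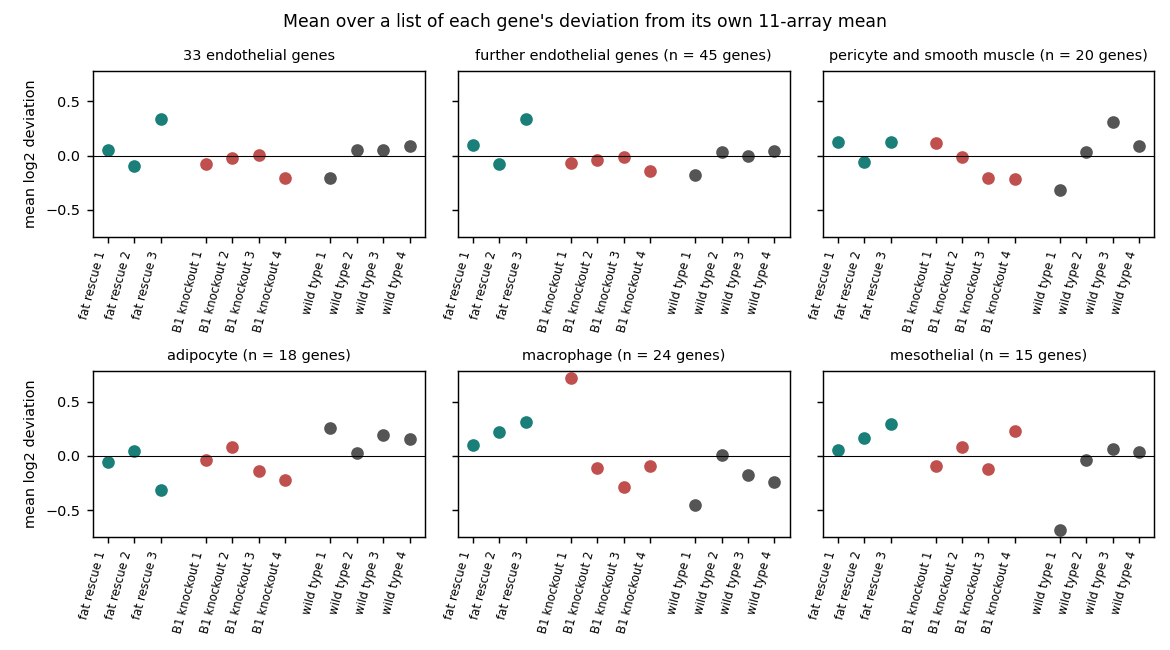
Mean log2 deviation of 6 gene lists from their own 11-array means, 1 point per array, in fat rescue, knockout and wild type. The 33 endothelial genes and the further endothelial genes are highest on fat rescue array 3 (both 0.34), where the adipocyte list is lowest (-0.31), and macrophage genes are highest on knockout array 1 (0.71).

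Markers of other cell types differed between arrays along with the endothelial genes, as the plot of list means shows. On fat rescue array 3 the 18 measured adipocyte genes had a mean deviation of -0.31, the lowest of their 11 arrays, the 24 macrophage genes 0.31 and the 15 mesothelial genes 0.29. On wild-type array 1 the adipocyte genes were at 0.26, the mesothelial genes at -0.68 and the macrophage genes at -0.45, each an extreme of its list. On knockout array 4 the adipocyte genes were at -0.22, along with the endothelial genes at -0.21. The part of these shifts in the endothelial differences was not tested.

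Between genotypes, the adipocyte list ranged from -0.31 to 0.04 in fat rescue, -0.22 to 0.08 in knockout and 0.03 to 0.26 in wild type. All 18 adipocyte genes had the lower fitted level in knockout than in wild type, and 17 in fat rescue than in wild type, with medians of -0.23 and -0.20 and 0 past the threshold. The defining markers Adipoq and Fabp4 were at -0.11 ± 0.15 and -0.05 ± 0.15 in fat rescue minus wild type. In knockout minus wild type they were at -0.13 ± 0.14 and -0.13 ± 0.14. Lep, another defining marker, was at 0.09 ± 0.35 and -0.30 ± 0.33 in these comparisons. It was the 1 adipocyte gene with the higher fitted level in fat rescue than in wild type. Plin1 was not read here. The macrophage list ranged from 0.10 to 0.31 in fat rescue, -0.29 to 0.71 in knockout and -0.45 to 0.01 in wild type, with 22 of 24 genes higher in fat rescue than in wild type (median 0.38), 18 higher in fat rescue than in knockout (0.13), 23 higher in knockout than in wild type (0.21) and 0 past the threshold. The 20 genes of pericytes and smooth muscle, the cells that wrap vessels, had 17 genes higher in fat rescue than in knockout (median 0.20), 9 higher in fat rescue than in wild type (-0.02), 6 higher in knockout than in wild type (-0.13) and 0 past the threshold. The 15 mesothelial genes had 12 higher in fat rescue than in knockout (median 0.24), 13 higher in fat rescue than in wild type (0.35) and 12 higher in knockout than in wild type (0.11). The 17 measured fibroblast and matrix genes had 7 (median -0.01), 12 (0.06) and 11 (0.08) higher in these same comparisons, with 0 past the threshold in either list. Within genotypes the median r with the 33 endothelial genes was 0.32 for the further endothelial genes, 0.27 for mesothelial and 0.26 for pericyte and smooth muscle genes. It was 0.21 for fibroblast and matrix genes and 0.20 for Notch and BMP signalling genes of endothelium. For macrophage genes it was 0.16, for ligands and cofactors 0.07 and for adipocyte genes -0.14.

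For completeness of these lists, the genes with the smallest p of the F test are given without a call, since none passed. In fat rescue minus wild type, the macrophage genes Cybb, Mpeg1 and Ctss were at 0.71, 0.93 and 0.96, and the mesothelial genes Upk1b, Lrrn4 and Bnc1 at 0.71, 0.52 and 0.53. The adipocyte genes Cidea, Cidec and Gpd1 were at -1.37, -0.27 and -0.67, and the pericyte and smooth muscle genes Abcc9, Notch3 and Kcnj8 at 0.37, 0.31 and 0.30. Of the fibroblast and matrix list, Dpt, Fbln1 and Sparc were at -0.49, 0.43 and -0.19, of which Fbln1 was at 0.10 and Sparc turned to 0.07 with the mean of their probe sets. Without fat rescue array 3 Gpd1 was at -0.40 and Cidea at -0.92, and without fat rescue array 2 Gpd1 was at -1.03. Gpd1 was at -0.33 with the mean of its probe sets, and Cidea at -0.69 with 50 added to each signal before the log.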

How the data were processed

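Total RNA of epididymal fat was labelled with biotin and hybridised by the submitters to 1 array per sample. The authors deposited 1 linear signal intensity per probe set, made with GCOS 1.3 and MAS5 per the submitters' processing notes. The deposited intensities have a trimmed mean of 200 on every array (2% left out at each end). A genome build is not given in the sources used here.

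Of 45101 probe sets, 34945 had 1 gene symbol, updated to the RefSeq gene table of GRCm38.p6. A single value of 0 was set to 0.1, log2 was taken, probe sets in the upper 60% of mean log2 were kept, and the brightest probe set stood for a gene (12709 genes). All 11 arrays were fitted with limma 3.58.1 (lmFit, eBayes with trend) in R 4.3.3, with genotype as the only factor. Tests were two-sided, with Benjamini-Hochberg adjustment over all genes and a threshold of 0.05. Values after ± beside a difference are standard errors on the log2 scale. The fit was tested on simulated data.

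The endothelial genes and the other lists were chosen with earlier results of these data known, so their counts and medians are descriptions. Genes given array by array are the 2 of each role class with the smallest p of the F test and those whose genotypes did not overlap in a comparison. For each other list, 3 genes were named by the same test, and 6 genes most like the set by mean r.

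Of 10 pairs of arrays with the same replicate number in different genotypes, 4 had deviations that correlated above 0.1 (-0.14 to 0.35). Those were pairs of arrays numbered 1 or 4, and the highest was wild-type array 1 with fat rescue array 1. The labels state no pairing, and the numbers were not treated as pairs in the main fit. Alternatives were quantile normalisation, centring on array medians, log2(value + 50), no filter or the upper 40%, no trend in eBayes, averaging a gene's probe sets, fitting only the 2 genotypes compared, a replicate block, and leaving out each array in turn or both that stood apart.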

Additional observations from a re-analysis of the deposited data

Results flagged for a closer look

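In 8 of the 98 groups of 4 arrays examined, a single array lay far from the other 3 by Dixon's criterion, which chance gives in about 1 of 20 groups. Wild-type array 1 accounted for 6 of them. Its mean over the 33 endothelial genes was the lowest of the wild-type arrays, -0.20 on the log2 scale, against 0.05 to 0.09 on the other wild-type arrays, and -0.31 for the G protein-coupled receptors and their partner. Its means for mesothelial genes, -0.68, and for fibroblast and matrix genes, -0.36, were also apart. S1pr1 read 359.6 there, against 713.9 to 785.9 on the other wild-type arrays, while Sox18 read 1030.3, against 708.8 to 760.9. Among knockout arrays, Clec14a read 300.1 on array 1, against 222.2 to 231.4 on the others, and Icam2 read 470.6 on array 3, against 365.4 to 381.0.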

How the results depend on the processing

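The count of endothelial genes called was 0 in all 3 comparisons under all 21 alternatives, with smallest adjusted p of 0.0973 (Sox17, knockout against wild type, without wild-type array 1), 0.728 (fat rescue against knockout) and 0.0964 (Clec14a, fat rescue against wild type). Median centring put the median of all genes at -0.13 in knockout minus wild type, instead of 0.02, and at -0.07 in fat rescue minus wild type, instead of 0.03. It moved the endothelial median to -0.22 in knockout minus wild type, with 3 genes higher, and turned it to -0.00786 in fat rescue minus wild type, with 15 higher. Leaving out 1 array gave medians of -0.119 to -0.0291 (knockout minus wild type), 0.0675 to 0.278 (fat rescue minus knockout) and -0.0380 to 0.177 (fat rescue minus wild type), the lowest of both fat rescue comparisons without fat rescue array 3. The median r of the set was 0.290 to 0.474 over these. Of single genes, Erg turned to -0.00941 in knockout minus wild type with median centring, and Sparc to 0.0715 in fat rescue minus wild type with the mean of probe sets; the cause was not tested.

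Over all genes, 5 were called in knockout against wild type. The count was 10 with median centring, 2 without trend, 2 with only the groups compared, 8 with the replicate block, 14 without both arrays that stood apart, and 2 to 14 leaving out 1 array. In fat rescue against wild type the count of 2 became 5 with centring, 6 with the upper 40% of probe sets, 1 with the mean of probe sets, 1 without trend, 1 with only the groups compared, 6 without both arrays, and 1 to 8 leaving out 1 array. In the F test the count of 5 became 2 with the mean of probe sets, 1 without trend, 2 with the replicate block, and 1 to 7 leaving out 1 array. The replicate block left 0 endothelial genes called. Whether the replicate numbers pair the arrays is not stated in the labels, and 5 of 11 arrays matched best with their own number. In fat rescue against knockout 0 genes were called under every alternative, with 265 higher and 219 lower at an unadjusted p under 0.05 with all arrays.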
